A study of Mus musculus with 12 samples.

Results

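The nuclear genes of the mitochondrial respiratory chain and ATP synthase were followed through 12 RNA-seq libraries of a mouse fibroblast line. Members were the protein-coding genes whose mouse symbol begins with Nduf, Uqcr, Atp5, Cox4i, Cox5, Cox6, Cox7 or Cox8, without pseudogenes. Of 54532 genes in the count files, 103 symbols carried one of these prefixes and 90 genes remained after 13 that were not protein-coding, or were named as pseudogenes, had been left out. They comprise 36 subunit genes of complex I, 8 complex I assembly factors, 8 genes of complex III and 18 genes of ATP synthase. Complex IV has 11 general subunits and 9 further genes, called restricted below, namely tissue- or condition-restricted isoforms and Cox7a2l, a supercomplex factor. Ndufa4 carries a complex I name but encodes a subunit of complex IV and was counted there.

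The cells were L929, an established line of mouse fibroblasts, and RNA with poly(A) tails was sequenced 6 hours after transfection. Each of 6 labels has 2 libraries: mock, described as untreated, transfection of HT-DNA, hpRNA, G3-YSD or HSV, and stimulation with cGAMP, the second messenger that the DNA sensor cGAS makes. The mock label does not say whether transfection reagent was added, and apart from cGAMP the abbreviations stand as the labels write them. Transfections were made in duplicate, but the labels do not tie a library to a separate culture or day, so p-values measure only the spread between libraries, which may be technical. The digit that ends each HSV title was read as a replicate number, although it could also name a virus type, in which case HSV would be 2 groups of 1 library. The source name of cGAMP, G3-YSD and HSV is worded differently from that of mock, HT-DNA and hpRNA, so a batch that follows this wording and the stimulus cannot be told apart.

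Complex I takes electrons from NADH, complex III passes them from ubiquinol to cytochrome c, complex IV hands them to oxygen, and ATP synthase uses the proton gradient built on the way. Each of these complexes joins subunits encoded in the nucleus to a few encoded in mitochondrial DNA, and assembly factors help to build them without staying in the finished enzyme. Nuclear respiratory factor 1 (NRF1), the ETS factor GABP, YY1 and the estrogen-related receptors are known regulators of many of these genes, and several complex IV subunits have alternative isoforms used in muscle, lung, testis or low oxygen.

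RefSeq promoter windows on GRCm38.p6, from 250 bases before to 50 after a transcript start, were at hand for 73 of the 89 member symbols, 78 windows in all. The NRF1 motif, GCGCA joined to its own reverse complement, was found in 7 of them, or 8.97%, against 0.971% of all 32851 windows. Its shorter form GCGCANGC, which every full motif also contains, was in 30.8% of member windows and 9.95% of all. The ETS motif CCGGAAG stood in 20.5% against 8.86%, the YY1 motif AAGATGGC in 14.1% against 2.75%, and the estrogen-related receptor motif TCAAGGTCA in 1.28% against 0.423%. Both strands were searched, and a match describes letters only, not binding. ATP synthase windows held the short NRF1 form in 9 of 18, while the 5 windows of the restricted complex IV genes held none of the 5 motifs. Printed here are the 120 bases before the start of 4 members: Cox8a, the complex IV member with the highest level, Ndufa11, the accessory subunit whose window is the 1 of 34 from complex I with the full NRF1 motif, and the assembly factors Ndufaf4 and Ndufaf1, which had the lowest ratios between libraries. Capitals mark full and short NRF1 matches in Ndufa11 and Ndufaf4 and an ETS match in Ndufaf1, and the printed bases of Cox8a hold no complete match.
Cox8a: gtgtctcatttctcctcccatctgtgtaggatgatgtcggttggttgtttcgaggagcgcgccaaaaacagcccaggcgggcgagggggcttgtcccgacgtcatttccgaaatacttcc
Ndufa11: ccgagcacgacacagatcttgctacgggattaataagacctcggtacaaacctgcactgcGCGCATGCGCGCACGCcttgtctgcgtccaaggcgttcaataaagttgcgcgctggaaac
Ndufaf4: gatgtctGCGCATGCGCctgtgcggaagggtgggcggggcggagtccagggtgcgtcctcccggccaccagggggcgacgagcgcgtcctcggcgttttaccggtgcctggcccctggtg
Ndufaf1: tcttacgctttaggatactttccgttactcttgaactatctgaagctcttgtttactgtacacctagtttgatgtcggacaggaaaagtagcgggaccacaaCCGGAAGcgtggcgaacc
These lie at chr19:7217617-7217736 on the minus strand, chr17:56717642-56717761 on the plus strand, chr4:24897963-24898082 on the plus strand and chr2:119662835-119662954 on the minus strand. Whether a motif goes with a member's level was not tested.

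Total counts per library ran from 12650790 to 18912400, and the 3 counts taken as the detection limit equal 0.237 CPM in the shallowest library. The 8 fibroblast markers summed to between 2586 and 4152 CPM in every library, the 5 leukocyte markers to between 59.1 and 93.0 CPM, and epithelial, muscle and erythroid lists to at most 4.54 CPM each. The sum of the 3 endothelial markers was 11.1 and 3.08 CPM with G3-YSD 1 and 2 and 8.77 and 3.80 with HSV 1 and 2, against 0.244 to 0.798 CPM in the 8 other libraries. The libraries of G3-YSD and HSV stand apart by number. Deviations from the label mean correlated at 0.94 across genes between G3-YSD and HSV, so that same-numbered libraries of these 2 labels deviated alike. Whether labels, batches or pools were mixed among these 4 libraries was not tested, and each value of G3-YSD or HSV against mock takes the labels as given. The number of genes detected was 26496 and 26241 for G3-YSD 1 and HSV 1, 23997 and 23909 for G3-YSD 2 and HSV 2, and 21635 to 22550 in the other 8. Against mock, edgeR's quasi-likelihood test called 302 genes higher and 567 lower in G3-YSD and 291 and 585 for HSV at a Benjamini-Hochberg adjusted p under 0.05. Upper quartile scaling gave 364 higher and 314 lower, and 347 and 304, in its place, and raised the median of all genes from 0.11 to 0.24 and from 0.10 to 0.26 on the log2 scale. No gene was called when either mock library was left out. How far these library differences shape the results below was not tested beyond the values given with and without them.

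Per transcript length, the most abundant members belonged to ATP synthase and complex IV. The scale is TPM, each count divided by the length of the principal GENCODE transcript, and the value is the median over 12 libraries. Atp5b, the catalytic beta subunit of the F1 part, was highest at 2643 TPM with a range of 2532 to 3565, rank 29 of all genes. Cox8a and Cox6a1, small nuclear subunits of complex IV, followed at 1380 and 1365 TPM, then Atp5g2 at 1191 TPM, one of 3 genes that encode the c subunit of the membrane rotor. At the other end of ATP synthase stood Atp5s, the coupling factor B gene, with 4.73 TPM.

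Members of one complex differed widely among themselves. Complex I subunits spanned 379 TPM for Ndufa8, an accessory subunit, to 41.2 TPM for Ndufv3, an accessory subunit of the NADH-binding module. Their median was 164 TPM, against 445 for complex III, 591 for the general subunits of complex IV and 455 for ATP synthase. In complex III the order ran from Uqcrq at 941 to the core protein Uqcrc2 at 244 TPM. In complex IV it ran from Cox8a to Cox7a2 at 280 TPM. Assembly factors were low, between 52.3 TPM for Ndufaf2 and 14.6 TPM for Ndufaf3. The level of Uqcrq, like those of Atp5g1, Ndufab1 and Ndufb2, depends on the transcript chosen, since the longest principal transcript of these 4 genes was over 2 times longer than the one used.

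**Figure D1:**
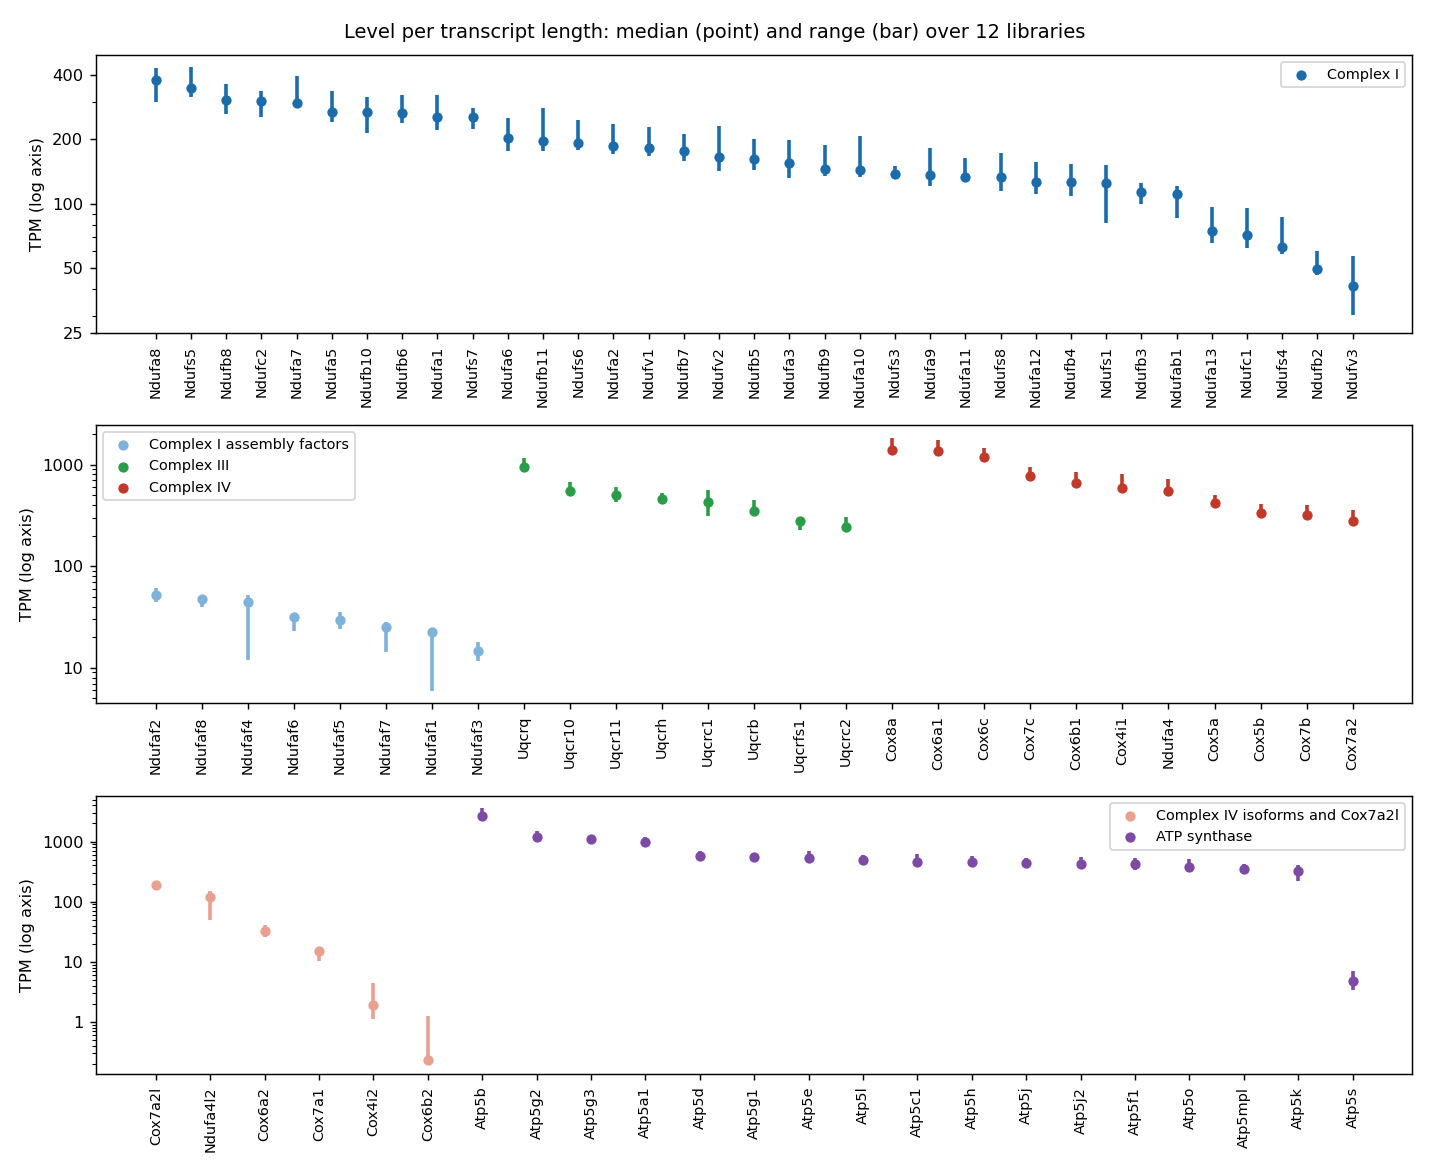
Level per transcript length (TPM, log axis) of the members with a median above 0, by complex, without the one not reported singly; points are medians and bars the range over 12 libraries. Atp5b leads at 2643 TPM, assembly factors lie between 14.6 and 52.3 TPM, and the long downward bars belong to Ndufaf4 and Ndufaf1.

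Apart from Ndufa4l2, which had a median of 117 TPM and is described below, restricted isoforms of complex IV were minor or at the detection limit. Cox4i2, the form of subunit 4 known from lung and low oxygen, made up 0.196 to 0.541% of the Cox4i1 and Cox4i2 transcripts per length. Cox6a2, the heart and muscle form, made up 1.95 to 2.78% of its pair and Cox7a1, the muscle form of subunit 7a, 3.69 to 6.03%. The testis and muscle genes Cox6b2, Cox7b2 and Cox8b lay at or near the detection limit, with at most 0.33, 0.0613 and 0.308 CPM in any library, and Cox8c had no count. These 4 and a second gene identifier of Atp5o, also without a count, did not pass the filter on low counts, so 85 of the 90 members were tested.

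The c subunit, which forms the rotor ring, was made from all 3 genes in near-constant proportion. Atp5g1 held 17.8 to 20.1%, Atp5g2 40.9 to 45.3% and Atp5g3 36.0 to 39.7% of their transcripts per length across the 12 libraries. With the longest principal transcripts the share of Atp5g1 would be 3.41 to 3.87%, and both Atp5g1 and Atp5g2 have near-identical copies elsewhere in the genome, so the split between the genes is uncertain.

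Outside G3-YSD and HSV the members' summed level varied little over the 8 libraries. It stood at 13033 and 13195 CPM in mock, 13339 and 13241 for HT-DNA, 13668 and 13880 for hpRNA, and 13656 and 14044 for cGAMP. All hpRNA and cGAMP libraries, and both HT-DNA libraries by a smaller margin, thus lay above both mock libraries, and mock 1 and cGAMP 2 were farthest apart. As a plain share of all counts, without TMM scaling, members took 1.36 and 1.33% in mock, 1.36 and 1.32% in HT-DNA, 1.41 and 1.39% in hpRNA and 1.38 and 1.39% in cGAMP. On that scale HT-DNA overlapped mock and the other 2 labels did not.

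Single members were steady too. Among the 82 members of at least 10 CPM, the median coefficient of variation over these 8 libraries was 5.27%. For all 9345 genes of at least 10 CPM it was 7.11%, a description without a test. The 2 sets were not matched for level above that limit, so the part of abundance in this difference was not tested. Cox7a2 was the steadiest at 1.37%, followed by Atp5a1, the F1 alpha subunit, at 1.82% and Cox6b1 at 1.91%. Cox4i2 and Cox7a1, at means of 0.632 and 2.81 CPM, varied most at 32.9 and 19.3%, followed by Atp5k, a small membrane subunit of ATP synthase, at 16.5%.

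No member was called by edgeR in HT-DNA, hpRNA or cGAMP against mock, where 0% of all genes were called in each comparison. The spread in this fit was estimated from all 12 libraries, the wide G3-YSD and HSV pairs among them. Its p-values and standard errors therefore do not measure the spread of these labels alone, and an absent call does not show equal levels. At an unadjusted p under 0.05 the counts were 0, 0 and 1 of 85 members, where 0.143, 0.137 and 0.291% of all genes were higher and 0.226, 0.208 and 0.297% lower. DESeq2 called no member in any of the 3, and 0% of all genes higher and at most 0.00594% lower. The median log2 fold change of the members was 0.03 for HT-DNA, 0.09 for hpRNA and 0.09 for cGAMP, beside medians of all genes that round to 0.00. Values above 0 were held by 57 members in HT-DNA, 75 for hpRNA and 66 for cGAMP, where 48.5, 49 and 49.9% of all genes were above 0. Both hpRNA libraries lay above both mock libraries for 50 of 85 members and below for 3, where 10.5% of all genes lay above and 10.3% below. For cGAMP the counts were 48 above, with 14.9% of all genes, and 6 below, with 15.1%. For HT-DNA 26 lay above, with 13.8% of all genes, and 7 below, with 14%. The 3 comparisons share the mock libraries and are therefore not separate evidence of one another.

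Of single members in these comparisons Atp5k, a subunit of the membrane part that helps ATP synthase form dimers, had the lowest p. Its level was 39.1 and 46.8 CPM in mock, 56.1 and 50.7 for HT-DNA, 58.1 and 61.1 for hpRNA, 59.7 and 67.9 for cGAMP, 53.0 and 87.1 for G3-YSD, and 67.3 and 73.6 for HSV. Both mock libraries were thus below every other library. In cGAMP against mock its log2 fold change was 0.57 with a standard error of 0.23, and edgeR did not call it.

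The libraries G3-YSD 2 and HSV 2 held more respiratory chain RNA than all others. The members' sum was 13077 CPM for G3-YSD 1 against 19426 for G3-YSD 2, and 13691 for HSV 1 against 19045 for HSV 2. Library 2 exceeded library 1 by 1.49-fold in G3-YSD and 1.39-fold in HSV, while the same ratio was 0.993 to 1.03 in the other 4 labels. In bulk RNA a change in RNA per cell and a change in the make-up of the culture cannot be told apart, and CPM are shares of a library. The summed level of the 8 fibroblast markers moved with the members. It was 2759 and 4152 CPM for G3-YSD 1 and 2 and 2586 and 4056 for HSV 1 and 2. The 8 other libraries held 3016 to 3280 CPM. Vim, with a median of 2283 CPM over the 12 libraries, made up most of this sum, and not every marker peaked in library 2. Col1a2 was highest in mock 1, at 264 CPM. The sum of the endothelial markers, given above, was instead higher in library 1, but these markers did not move together. Kdr, at 10.5 CPM, made up most of the sum in G3-YSD 1, whereas Pecam1 was highest in HSV 2, at 3.47 CPM. Cdh5 stayed at or under 0.248 CPM. The part of both marker lists, and of the lower number of genes detected in library 2, in the members' levels was not tested.

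By complex, the ratio of library 2 to library 1 ran in G3-YSD from 1.42 for complex III and complex IV to 1.54 for ATP synthase, and in HSV from 1.26 for complex IV to 1.46 for ATP synthase. It was 1.24 and 1.23 for the restricted genes of complex IV and below 1 for the assembly factors. ATP synthase went from 6131 to 9440 CPM in G3-YSD and from 6355 to 9301 for HSV, and complex I from 2809 to 4253 and from 2977 to 4184. Complex III went from 1354 to 1919 and from 1363 to 1870, and complex IV from 2437 to 3458 and from 2664 to 3359. The restricted genes of complex IV went from 167 to 207 CPM and from 151 to 186, and HSV 2 lay within the 150 to 197 CPM of the 8 other libraries. Most of this sum was Cox7a2l, which is not a tissue-restricted isoform, at 120 and 138 CPM in G3-YSD and 109 and 124 for HSV. The sum of the assembly factors of complex I was lower in library 2, at 180 and 149 CPM and at 181 and 146, against 185 to 219 CPM in the 8 other libraries. That sum was set by Ndufaf4 and Ndufaf1. Without them the sum of the other 6 assembly factors was higher in library 2, at 87.0 against 118 CPM for G3-YSD and 94.0 against 114 for HSV, around 97.8 to 109.6 CPM in the 8 other libraries. Over all 8 assembly factors the median ratio of library 2 to library 1 was 1.24 for G3-YSD and 1.07 for HSV.

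**Figure D2:**
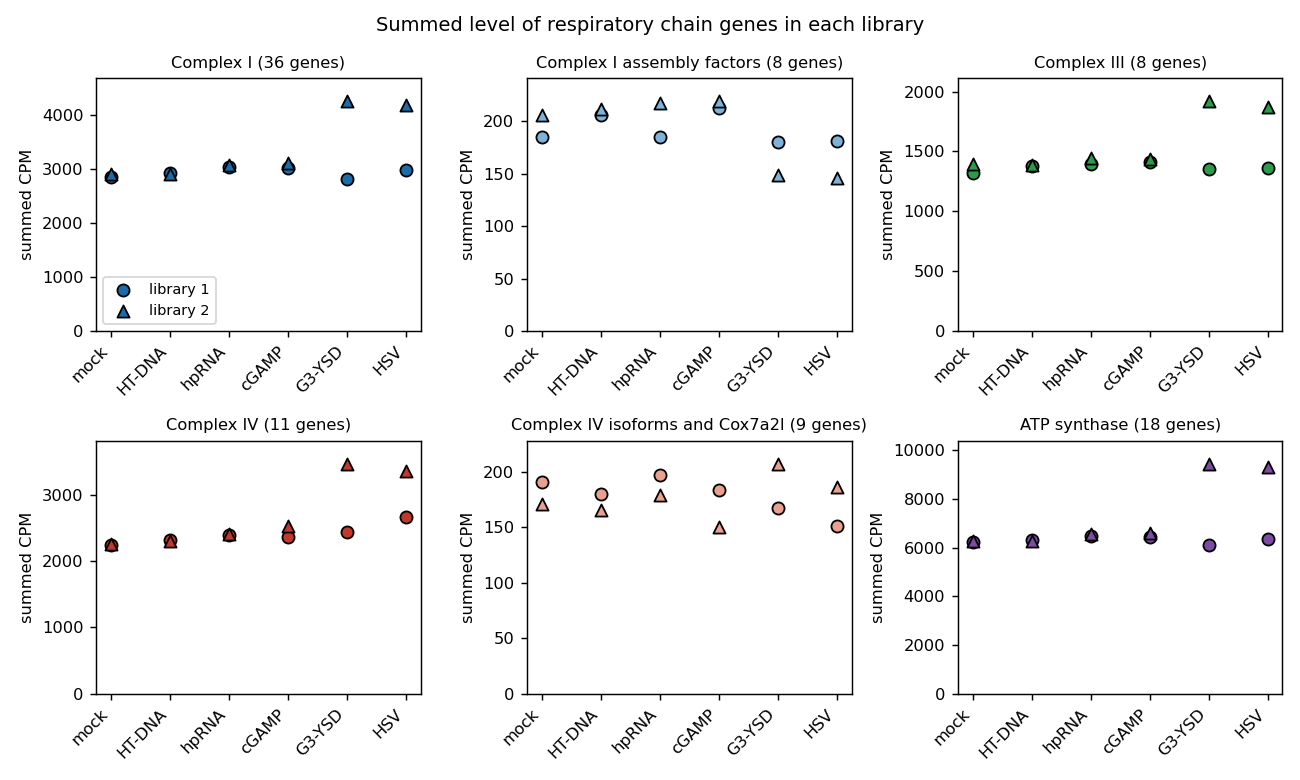
Summed CPM of the members of each complex in each library, with circles for library 1 and triangles for library 2 of a label. G3-YSD 2 and HSV 2 lie above the other 10 libraries in complexes I, III and IV and ATP synthase, and below them for the complex I assembly factors.

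Most members took part. Between the 2 libraries of G3-YSD, 73 of 85 were over 25% higher in library 2 and 2 were over 20% lower, where 33.7% of all genes were higher and 39.4% lower. By the same limits 55 were higher in HSV, with 33.3% of all genes, and 3 lower, with 38.9%. The median member ratio was 1.46 for G3-YSD and 1.30 for HSV, against 0.965 and 0.974 over all genes. The 55 members counted for HSV were over 25% higher in both labels, with 28.5% of all genes. In G3-YSD the 73 comprised 34 of 36 complex I subunits, 6 of 8 genes of complex III, all 11 of complex IV, 16 of 17 tested genes of ATP synthase, 4 of 8 assembly factors and 2 of 5 tested restricted genes of complex IV. For 73 of 85 members both G3-YSD 2 and HSV 2 lay above each of the 8 libraries of the other labels, as did 33.4% of all genes, and for 3 members both lay below, as did 31% of all genes. Taken singly, G3-YSD 2 lay above the 8 for 75 members and below for 4, with 37.7 and 34.5% of all genes, and HSV 2 for 75 and 5, with 37.9 and 34.8%. The libraries numbered 1 stood out less: G3-YSD 1 lay above the 8 for 11 members and below for 23, with 38 and 33.5% of all genes, and HSV 1 for 31 and 17, with 38.1 and 34%.

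Among the members with the widest step were Ndufs1 and Uqcrc1, named here after their values were seen. Ndufs1, an iron-sulfur subunit of the NADH arm, stood at 117 and 220 CPM in G3-YSD 1 and 2 and at 111 and 223 for HSV 1 and 2, around a range of 155 to 166 in the 8 other libraries. Uqcrc1, a core protein of complex III, stood at 296 and 525 CPM for G3-YSD, and at 272 and 523 for HSV, around 340 to 362. For both genes library 1 of both labels lay below all 8 other libraries and library 2 above them.

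Atp5b shows the more common form of the step. It stood at 2425 and 2475 CPM in mock, 2473 and 2456 for HT-DNA, 2494 and 2555 for hpRNA, 2517 and 2609 for cGAMP, 2508 and 3889 for G3-YSD, and 2581 and 3861 for HSV. Library 1 of both labels lay within the range of the 8 other libraries and library 2 far above it. Cox4i1, the general form of subunit 4, stood at 231 and 336 for G3-YSD and 248 and 342 for HSV, against 203 to 237 elsewhere. Cox8a stood at 405 and 580 CPM for G3-YSD and 409 and 539 for HSV, against 355 to 386 elsewhere. Both genes were higher in all 4 of these libraries than in mock. Ndufa11 stood at 36.8 and 51.2 CPM for G3-YSD and 36.4 and 48.5 for HSV, against 34.8 to 39.4 elsewhere.

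**Figure D3:**
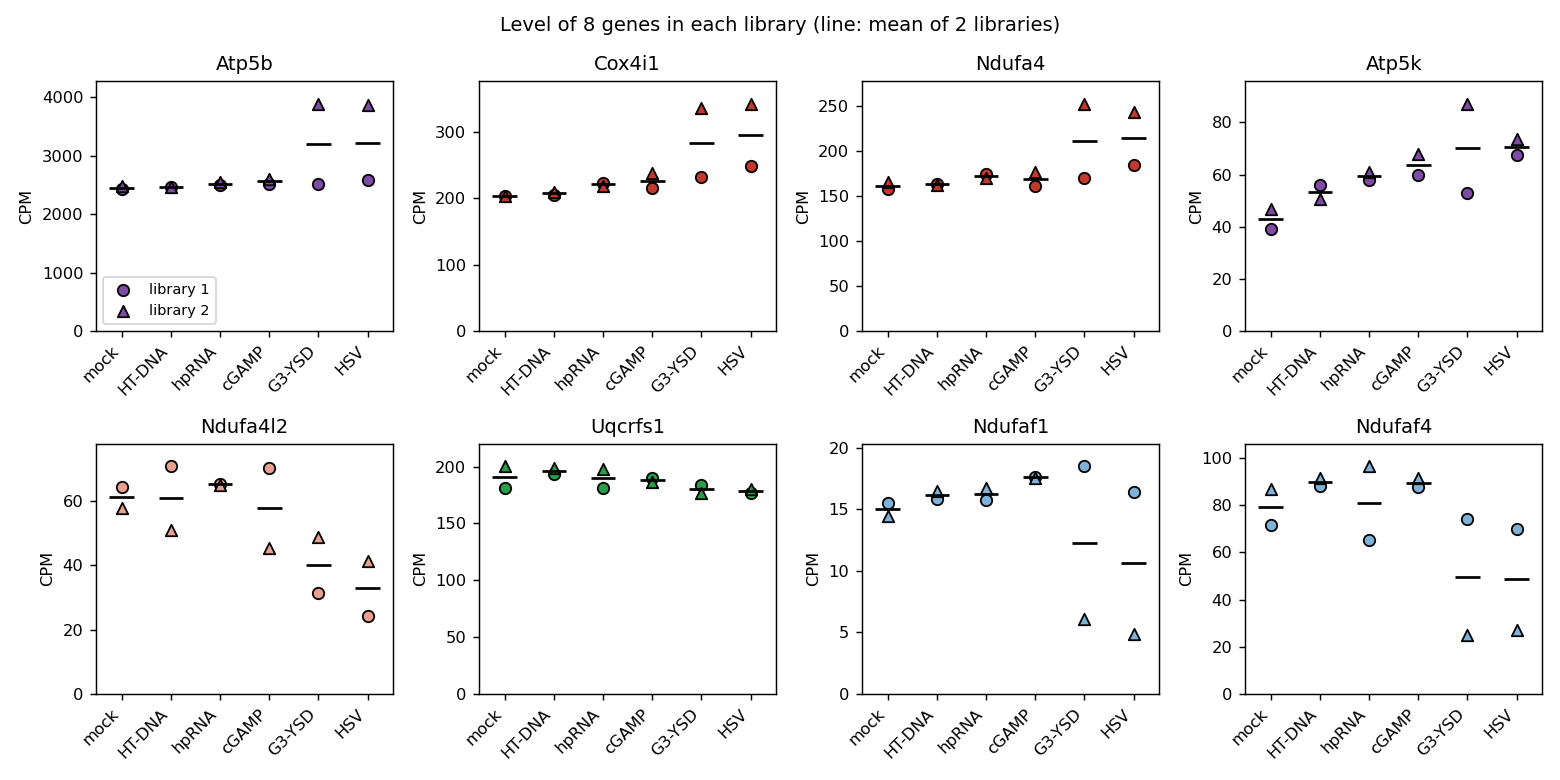
CPM of 8 members in each library, with circles for library 1, triangles for library 2 and a line at the mean of the 2. Atp5b, Cox4i1 and Ndufa4 are high in G3-YSD 2 and HSV 2, Ndufaf1 and Ndufaf4 are low in the same 2 libraries, and Uqcrfs1 stays between 177 and 200 CPM throughout.

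The 3 members below all 8 other libraries in both G3-YSD 2 and HSV 2 were Ndufaf1, Ndufaf4 and Uqcrfs1. Ndufaf1, chromosome 2, 119655446 to 119662827, encodes a factor that helps to build the membrane arm of complex I. It stood at 15.5 and 14.5 CPM in mock, 15.9 and 16.5 for HT-DNA, 15.7 and 16.7 for hpRNA, 17.6 and 17.6 for cGAMP, 18.5 and 6.07 for G3-YSD, and 16.4 and 4.87 for HSV. Only G3-YSD 2 and HSV 2 were low, at 0.346 and 0.317 of library 1 of their label, with 0.5 CPM added to each level.

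Ndufaf4, chromosome 4, 24898083 to 24905001, another assembly factor of complex I, did the same. It stood at 71.7 and 86.7 CPM in mock, 88.2 and 91.8 for HT-DNA, 65.5 and 96.5 for hpRNA, 87.8 and 91.5 for cGAMP, 74.1 and 25.1 for G3-YSD, and 70.1 and 27.2 for HSV. The ratio of library 2 to library 1, again with 0.5 CPM added to each level, was 0.344 for G3-YSD and 0.392 for HSV. Over the label pairs its log2 fold change against mock was -0.67 with a standard error of 0.53 for G3-YSD and -0.70 with 0.53 for HSV, which edgeR did not call at adjusted p of 0.451 and 0.432. Without G3-YSD 2 the first was -0.11, and without HSV 2 the second was -0.19.

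Uqcrfs1, the Rieske iron-sulfur protein that takes electrons from ubiquinol, had almost one level. It stood at 184 and 177 CPM in G3-YSD and at 177 and 181 for HSV, against 181 to 200 in the 8 other libraries. Library 2 was higher than library 1 for the 7 other genes of complex III, by 1.23- to 1.77-fold in G3-YSD and 1.15- to 1.92-fold in HSV. Atp5s, Ndufaf2, Ndufaf8 and Ndufb2 also had a ratio of library 2 to library 1 under 1.1 in both labels. Ndufaf2 shares 65.6% of its exon bases with another gene, so its counts are uncertain.

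**Figure D4:**
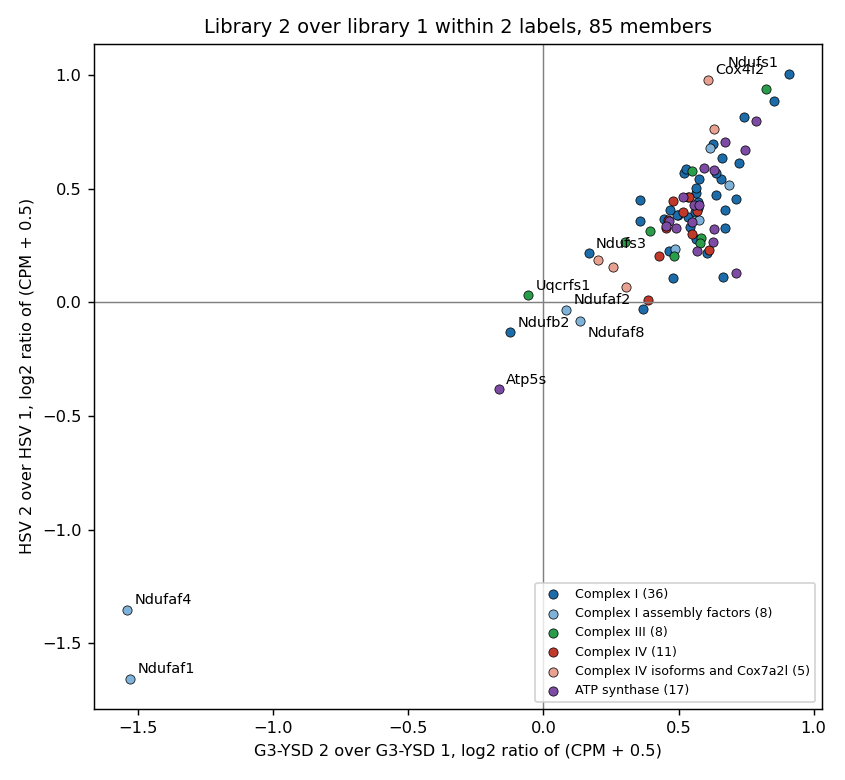
Log2 ratio of library 2 to library 1 (CPM + 0.5) in HSV against that in G3-YSD for the 85 members tested, coloured by complex. Most members lie in the upper right, Ndufaf1 and Ndufaf4 lie farthest to the lower left, and Uqcrfs1 lies near 0 on both axes.

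Against mock, the label means of G3-YSD and HSV were higher for most members, and edgeR called none of them. By edgeR 0 of 85 members were called in G3-YSD, beside 5.16% of all genes, and 0 of 85 for HSV, beside 5.2%. At an unadjusted p under 0.05, 13 members were higher and none lower in G3-YSD, and 17 were higher and 2 lower in HSV. Of all genes 12.6% were higher and 11.6% lower in G3-YSD at that level, and 12.5% and 11.8% in HSV. The median log2 fold change of the members was 0.32 for G3-YSD and 0.35 for HSV, against 0.11 and 0.10 for all genes tested. Values above 0 were held by 76 members in each, where 56.7 and 56.3% of all genes were above 0. Without library 2 of each label these medians were 0.02 and 0.12, and without library 1 they were 0.58 and 0.51. Both G3-YSD libraries lay above both mock libraries for 39 members, as did 24.4% of all genes, and below for 3, as did 22.7%. For HSV 50 lay above, with 24.7% of all genes, and 5 below, with 22.8%.

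DESeq2, run on the same counts, called a few. In G3-YSD these were Atp5k, with a log2 fold change of 0.74 and an adjusted p of 0.031, and the complex IV subunit Cox7c, with 0.47 and 0.030, where DESeq2 called 6.77% of all genes higher and, with no member among them, 7.16% lower. In HSV it called Atp5k, the accessory complex I subunits Ndufa5 and Ndufa12, Cox7c, Ndufaf2 and the complex IV subunit Cox6c, all higher, beside 6.7% of all genes higher and 7.33% lower. Their DESeq2 values ran from 0.47 for Cox6c, at an adjusted p of 0.049, to 0.75 for Atp5k, at 0.029, on the log2 scale. Cox7c stood at 181 and 193 CPM in mock, 220 and 288 for G3-YSD, and 267 and 269 for HSV. It is 1 of 17 members with near-identical copies elsewhere, over 58.3% of its transcript, so its counts may be shared with them, as may those of Ndufa12 over 36.2%. By edgeR its adjusted p was 0.140 for G3-YSD and 0.097 for HSV.

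Leaving out G3-YSD 1 led edgeR to call 3 members of ATP synthase higher, where 1.35% of all genes were, and leaving out G3-YSD 2 led to no call. These were Atp5k, at 1.01 on the log2 scale, Atp5e, the epsilon subunit of F1, and Atp5mpl, a small membrane subunit. This fit rests on G3-YSD 2 alone for that label and takes its spread from the other labels.

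**Figure D5:**
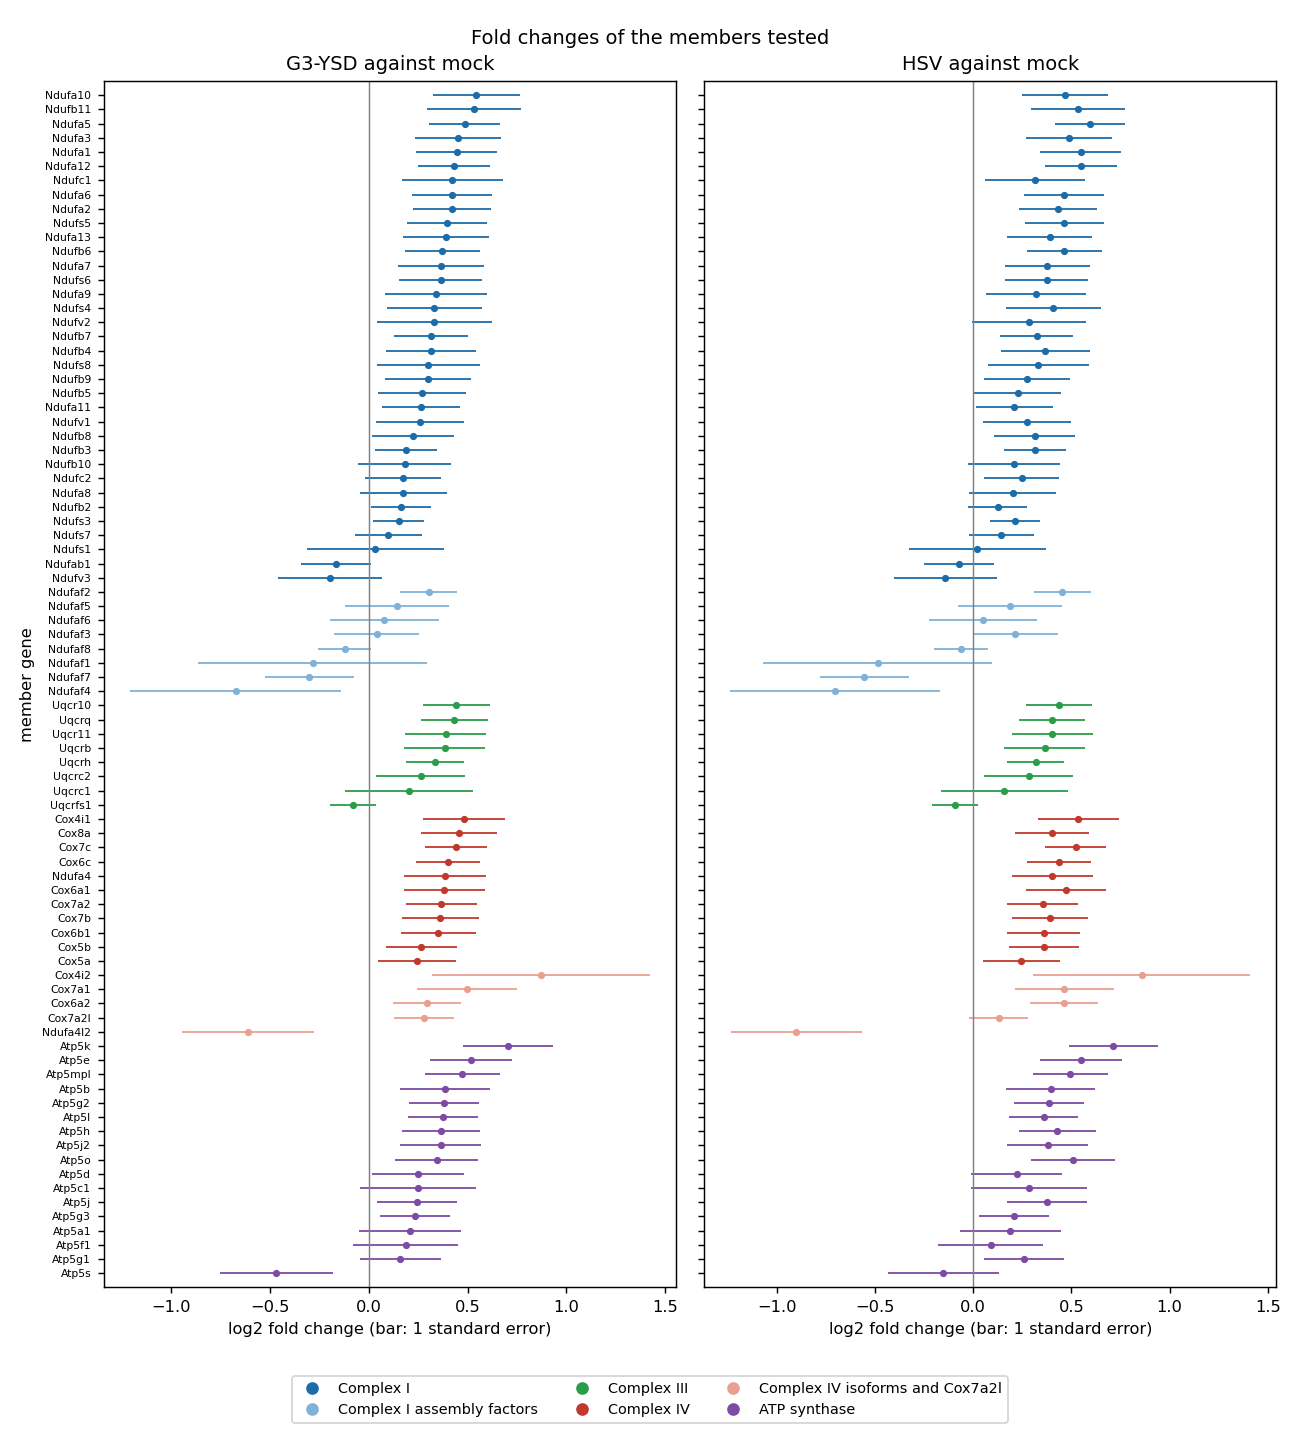
Log2 fold change of the members tested, without the one not reported singly, in G3-YSD and HSV against mock, with bars of 1 standard error, ordered by complex and by value in G3-YSD. Most points lie above 0 in each panel, and the low points are Ndufa4l2, Ndufaf4, Ndufaf7, Ndufaf1 and Atp5s.

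Ndufa4l2 lay below mock in both libraries of G3-YSD and of HSV. It lies on chromosome 10, 127514967 to 127517154, and encodes a relative of the complex IV subunit Ndufa4 that is known as a target of hypoxia-inducible factor 1. Its level was 64.6 and 57.8 CPM in mock, 70.8 and 51.0 for HT-DNA, 65.4 and 65.2 for hpRNA, 70.3 and 45.4 for cGAMP, 31.4 and 48.9 for G3-YSD, and 24.2 and 41.5 for HSV. All 4 libraries of G3-YSD and HSV lay below both mock libraries, but G3-YSD 2 lay above cGAMP 2. Its log2 fold change against mock was -0.61 with a standard error of 0.33 for G3-YSD and -0.90 with 0.34 for HSV. edgeR called neither, at adjusted p of 0.291 and 0.156. Without the filter on low counts the HSV value was called at -0.93, and without HSV 2 it was -1.35.

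Within the pair, per transcript length, Ndufa4l2 made up 10.8 and 11.2% of Ndufa4 and Ndufa4l2 for G3-YSD and 7.92 and 10.0% in HSV. In the 8 other libraries it made up 14.4 to 22.2%. All 4 shares were therefore lower than any of the 8, in libraries 1 and 2 alike. Ndufa4 itself stood at 157 and 166 CPM in mock, 170 and 252 for G3-YSD, and 184 and 243 for HSV.

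Other condition-linked genes of complex IV were not called by edgeR. Cox4i2 stood at 0.682 and 0.671 CPM in mock, 0.886 and 1.61 for G3-YSD, and 0.674 and 1.82 for HSV, on 7 to 22 counts a library. Cox7a2l, which ties complex IV to complex III in supercomplexes, stood at 114 and 98.9 CPM in mock, 99.4 and 90.6 for cGAMP, and 120 and 138 for G3-YSD. DESeq2 called it higher in G3-YSD against cGAMP, at 0.47 on the log2 scale and an adjusted p of 0.030, beside 6.3% of all genes higher and 7.16% lower. By edgeR 0 of 85 members were called there, beside 5% of all genes, and 0 of 85 for HSV against cGAMP, beside 5.08%. In these 2 comparisons 71 and 74 members had values above 0, with 56.8 and 56.5% of all genes. The medians of the members were 0.21 and 0.23, against 0.11 and 0.11 for all genes tested. Without G3-YSD 2 the first median was -0.12, and without HSV 2 the second was 0.0017. Ndufaf7, a methyltransferase needed for complex I assembly, was the remaining member with p under 0.05 and a negative value in HSV against mock, at -0.55 (standard error 0.23), which edgeR did not call at an adjusted p of 0.184. It stood at 20.7 and 23.5 CPM in mock and 13.1 and 17.0 for HSV.

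Of 8 genes of the low-oxygen metabolic switch outside the prefixes, edgeR called 3 lower in both G3-YSD and HSV against mock and none higher, where 3.37 and 3.47% of all genes were called lower. Slc2a1, a glucose transporter, stood at 177 and 282 CPM in mock, and at most 96.4 in any library of G3-YSD or HSV. Bnip3, a mitophagy receptor, stood at 88.0 and 97.4 for mock, 32.1 and 27.8 for G3-YSD, and 25.2 and 22.9 for HSV. The third was Ankrd37, with a log2 fold change of -1.83 for G3-YSD and -2.76 for HSV, and for all 3 the groups lay below mock without overlap, as did 22.7 and 22.8% of all genes. These calls, like all others, were lost when either mock library was left out.

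Of 16 regulators of respiratory gene transcription, edgeR called Yy1 and Esrra, the gene of estrogen-related receptor alpha, lower in both labels, where 3.37% of all genes in G3-YSD and 3.47% in HSV were called lower. Yy1 stood at 117 and 114 CPM in mock, 74.6 and 64.7 for G3-YSD, and 70.9 and 66.4 for HSV, with log2 fold changes of -0.73 and -0.75. Esrra stood at 73.7 and 75.3 for mock, 39.0 and 33.2 for G3-YSD, and 42.7 and 36.2 for HSV, with -1.04 and -0.92. Libraries 1 and 2 were thus alike for both regulators. Of all 16 regulators, 5 were over 25% higher in library 2 of G3-YSD and 5 in that of HSV, beside 33.7 and 33.3% of all genes. The median ratio of library 2 to library 1 over this list was 0.860 and 0.893, against 0.965 and 0.974 over all genes. Chosen from the list after their values were seen, Nrf1 and Myc did separate the libraries. Nrf1 stood at 73.7 and 32.1 CPM in G3-YSD and 81.4 and 33.6 for HSV, against 48.7 to 61.0 elsewhere. Myc stood at 221 and 1914 for G3-YSD and 204 and 1892 for HSV, against 224 to 283 elsewhere. Their part in the members' levels was not tested.

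The 13 mitochondrially encoded subunits, which join the members in the same complexes, showed a wider step in the same direction. Their sum was 13646 and 35520 CPM for G3-YSD 1 and 2, 13605 and 34032 for HSV 1 and 2, and 18518 to 22220 in the 8 other libraries. All 13 were over 25% higher in library 2 of both labels, as were 28.5% of all genes. None was called against mock, beside 5.16% of all genes in G3-YSD and 5.2% in HSV. Library 1 of G3-YSD and HSV lay below the 8 others, whereas the summed nuclear members of those libraries lay among them.

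Other mitochondrial lists moved by different amounts between libraries 1 and 2. The 16 genes of the citrate cycle and pyruvate dehydrogenase summed to 1.52-fold more in G3-YSD 2 and 1.51-fold more in HSV 2. Complex II with the mobile electron carriers, 9 genes, gave 1.48 and 1.40. The ratio was 1.15 and 1.09 for 78 mitochondrial ribosomal protein genes and 1.07 and 1.03 for 44 assembly factors outside the prefixes, in the latter with 12 of 42 tested genes over 25% higher in G3-YSD and 10 for HSV, beside 33.7 and 33.3% of all genes. The 17 membrane and chaperone genes lay between, at 1.28 and 1.23. Against mock edgeR called none of the citrate cycle, electron carrier or membrane genes, beside 5.16% of all genes in G3-YSD and 5.2% in HSV. It called the assembly factor Coa7 lower in G3-YSD, the ribosomal protein gene Mrpl43 lower in both labels and Mrpl2 higher in HSV. These were 1 of 42 tested assembly factors and, in each label and direction named, 1 of 77 tested ribosomal protein genes. The share of all genes called lower was 3.37% in G3-YSD and 3.47% in HSV, and 5.2% were called in either direction in HSV.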

How the data were processed

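The authors deposited 1 file of raw counts per gene for each of 12 libraries. The submitters' processing notes name HISAT2, HTSeq and build mm10 but no versions. No source used here gives the annotation release or the strand setting, and genes that overlap or have near copies can therefore share reads: 33 members share exon bases with another gene, 13 of them over 10%. Of 54532 gene identifiers 54409 matched GENCODE M21, which gave symbols, positions and transcript lengths. The tests ran under R 4.3.3, with edgeR 4.0.16 as the main tool (default low-count filter, 16840 genes, TMM, 1 term per label, 6 residual degrees of freedom) and adjusted over all genes tested. CPM and TPM were computed here, with a pseudocount of 0.5 CPM for ratios of single genes between libraries and none for ratios of sums. DESeq2 1.42.0, other scalings, no filter, a replicate block and leaving out single libraries were alternatives. The test was tested on simulated data. Near copies (97% identity over 150 bases) were found with BLAST 2.17.0. Named genes are called members, each complex's highest and lowest member per length, and isoform families. Ndufaf1, Ndufaf4, Uqcrfs1, Ndufs1, Uqcrc1, Atp5k, Cox7c and other exceptions were named after their values were seen. One member counted in all sums is not reported singly here. The members and lists were chosen with earlier results of these data known. Of the outside lists, only called genes are named, apart from Nrf1 and Myc.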

Additional observations from a re-analysis of the deposited data

How the results depend on the processing

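Each label had 2 libraries, the G3-YSD and HSV pairs were wide, and the main edgeR fit called no member. An absent call does not show that a level was equal. Whether changes of the size seen in most members could be called was not tested. The median log2 fold change of the members stayed above 0 under every alternative run, except in G3-YSD against cGAMP without G3-YSD 2, where it was -0.12. A value above 0 does not by itself set the members apart in the G3-YSD and HSV comparisons. With 1 library left out, the median of all genes ran from 0.0091 to 0.144 and 0.0085 to 0.144 against mock. Against cGAMP it ran from 0.013 to 0.148 and 0.0063 to 0.152, for G3-YSD and HSV in that order. The replicate numbers do not pair the libraries by the labels, and deviations of same-numbered libraries correlated at 0.37 to 0.65 among mock, HT-DNA, hpRNA and cGAMP, at 0.94 between G3-YSD and HSV, and at -0.36 to -0.31 across these sets. With the replicate block edgeR called 0 members in each comparison and 1211 and 1214 genes against mock, and 1142 and 1079 against cGAMP, for G3-YSD and HSV. In the 8 libraries without G3-YSD and HSV, an alternative chosen after seeing the data, the block gave 14 genes in HT-DNA and 23 in cGAMP against mock, none of them a member. Over all genes, the order being G3-YSD against mock, HSV against mock, G3-YSD against cGAMP and HSV against cGAMP, the counts of 869, 876, 842 and 856 became 1894, 1892, 1650 and 1633 without a filter, 2208, 2272, 2092 and 2033 with DESeq2, and 0 in each with the 4 libraries of the 2 labels alone. DESeq2 also called 1 gene each in HT-DNA and hpRNA against mock. Leaving out 1 library gave 0 to 652, 0 to 682, 0 to 567 and 0 to 671, with 0 for either reference library and 77, 130, 206 and 146 without library 2 of the stimulus. Member calls rose from 0 to 2, 6 and 1 with DESeq2 in G3-YSD against mock, HSV against mock and G3-YSD against cGAMP, to 1 in HSV against mock without the filter, and to 0 to 3 in G3-YSD against mock when 1 library was left out. The sign of some named members turned under an alternative. As the main fit called no member, such turns could fall only on members not called. Upper quartile scaling gave 0.056 and 0.058 for Uqcrfs1 in G3-YSD and HSV against mock and 0.014 for Ndufv3 in HSV. Ndufaf3 in G3-YSD was -0.0042 without the filter and -0.0078 without mock 2. Without mock 1, Ndufv3 was 0.011 in G3-YSD and 0.067 in HSV. Over all fits without 1 library, G3-YSD against mock ran from -0.21 to 0.46 for Ndufa8, -0.52 to 0.054 for Ndufv3, -0.25 to 0.26 for Ndufaf3, -0.051 to 0.50 for Uqcrc2, -0.13 to 0.39 for Atp5g1, -0.030 to 0.44 for Atp5g3 and -1.31 to 0.29 for Ndufaf1. HSV against mock ran from -0.027 to 0.38 for Ndufa8, -0.42 to 0.072 for Ndufv3, -0.047 to 0.53 for Uqcrc2, -0.016 to 1.40 for Cox4i2, -0.40 to 0.096 for Atp5s, -0.0026 to 0.46 for Atp5g1 and -1.63 to 0.12 for Ndufaf1. These extremes fell without library 1 or library 2 of the stimulus, apart from 0.096 for Atp5s, which was without mock 1 (without HSV 2 it was 0.035). The cause was not tested.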
